A study of Mus musculus with 3 samples.

Results

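The data described here are 3 CEL-Seq2 libraries of mouse embryonic fibroblasts (MEFs) that were transfected with siRNAs against Ep300 and harvested on day 6 of reprogramming, out of 127 libraries of the series that passed the authors' filter. The 3 libraries, labelled siEp300, were chosen by their column names and compared with 3 libraries that received a non-targeting siRNA (nt) and with 5 libraries labelled Mock. All cells were wild-type MEFs of the BL6 strain at passage 2 and carried inducible lentiviruses for OSKM, the reprogramming factors OCT4, SOX2, KLF4 and c-MYC, and were switched on with doxycycline at 2 µg/mL in a medium that also held the GSK3 inhibitor Chiron at 3 µM, the TGF-β receptor inhibitor Alk5i at 0.25 µM, ascorbic acid at 50 µg/mL and LIF. siRNAs were used at 40 nM. The groups set beside siEp300 were siHdac1, siHat1 and siBard1 (3 libraries each), the 32 other siRNA conditions together, and a time course of cells in the same series that were replated and not transfected (Day00 to Day06, 3 libraries each). The study's methods describe the replicates as repeated transfections, and neither they nor the labels say that these came from separate MEF preparations or embryos. The replicate number names the sequenced pool. The p-values rest on the spread between libraries of the same condition, estimated over all 127 libraries fitted together. That spread may in part be technical. RNA was taken from whole wells, and fewer cells of a type and less RNA per cell cannot be told apart.

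EP300, the p300 protein, is a histone acetyltransferase that transcription factors recruit to enhancers and promoters, where it acetylates histone tails and acts as a coactivator of RNA polymerase II. Its close relative CREBBP (CBP) shares most of its partners, among them SMAD proteins, HIF-1α, p53, NF-κB and nuclear receptors such as those for retinoic acid. In reprogramming, fibroblast enhancers lose and pluripotency enhancers gain acetylation while cells lose contractile, matrix and mesenchymal gene expression.

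The siRNA library lists 2 of the 3 siRNAs that the methods give per gene, and both are shown because their seeds (bases 2 to 8 of the antisense strand, in capitals) and target sites define what was transfected. The antisense strands, 5′ to 3′ and without their 2-base overhang, were:
siRNA 99177: uGUUUGGAgaagucaagcc
siRNA 99273: cUGGACUGuucaucauacc
The matching target sites in the Ep300 transcript, with the bases opposite the seed in capitals, were:
site of 99177: ggcttgacttcTCCAAACa
site of 99273: ggtatgatgaaCAGTCCAg
On mm10 they lie at chr15:81601201-81601219 and chr15:81601270-81601288, plus strand, both in the coding sequence of exon 2 of 31 (codons 130 to 136 and 153 to 159), 7928 and 7859 bases from the 3′ end of the transcript. No other gene held either full site in any of its annotated transcripts.

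The Ep300 transcript was not measured at a lower level in the siEp300 libraries. Its UMI counts were 4, 4 and 9 in siEp300 replicates 1, 2 and 3, against 0, 3 and 0 in nt and 0, 1, 3, 0 and 5 in Mock. Normalised to the total count of each library (CPM), this is 42.7 in siEp300 (95% exact Poisson interval 24.9 to 68.4), 10.1 in nt (2.07 to 29.4), 34.1 in Mock (15.6 to 64.7) and 29.0 in all 103 other transfected libraries (25.4 to 32.9), of which 20 had no Ep300 count. The ratio of siEp300 to all other transfected libraries was 1.47 (exact interval 0.845 to 2.41), and to nt 4.25 (1.23 to 22.6) with 3 counts in nt. CEL-Seq2 counts the 3′ end of a transcript, far from both target sites, so that it does not read the cut itself. Intact and cut transcripts cannot be told apart by these counts. The protein was not measured. Crebbp had 6, 6 and 22 counts in siEp300 and 6, 2 and 4 in nt, and its ratio to all other transfected libraries was 1.68 (1.15 to 2.38). These intervals cover counting error only. Ep300 did not reach the count needed for the test over genes, and in a fit without that filter its log2 fold change against nt was 1.92 ± 0.82 (SE) with an adjusted p of 0.954. The libraries are therefore called by their label, siEp300, and a lowered Ep300 level is not shown by these data. The siRNAs were given before reprogramming started and RNA was taken on day 6. A lower Ep300 level at an earlier time was not measured.

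Total counts ran from 29656 to 235292 over the 127 libraries (median 73279). siEp300 replicates 1, 2 and 3 held 80381, 82324 and 235292 counts, the third being the deepest of all 127, nt held 75100, 80136 and 143156, and Mock 38925 to 83089. After the filter on low counts 3013 genes were tested. Of markers of other cell types, macrophage genes summed to 0 to 37.3 CPM in siEp300 and 13.3 to 37.4 in nt, with 8 of 11 markers at 0 in siEp300, Ptprc, Cd68 and Csf1r among them. Endothelial genes summed to 12.1 to 49.8 CPM in siEp300, 0 to 26.6 in nt and 0 to 47.1 in Mock, with 5 of 10 markers at 0 in siEp300 (Cdh5 among them) and 7 in nt, and most of the counts on Tek and Kdr. Skeletal muscle genes summed to 8.50 to 36.4 CPM in siEp300, all above the 0 to 6.99 in nt, and to 0 to 20.1 in Mock. They rested on 5 counts of Des, in 2 libraries, and 1 of Actc1, with the other 9 of 11 markers at 0, Myod1 and Myog among them. The part of these cells in the results below was not tested. Neural, keratinocyte and adipocyte markers summed to 99.5 to 279, 102 to 124.4 and 46.8 to 87.1 CPM in siEp300, each a range that overlapped that of nt. The 14 fibroblast markers summed to 2891 to 4267 CPM in siEp300, 2089 to 2716 in nt and 2306 to 3674 in Mock, and this list shares members with the matrix and mesenchymal genes below.

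Against nt, 171 of 3013 genes (5.68%) passed an adjusted p of 0.05 in edgeR's quasi-likelihood test, 91 higher in siEp300 (3.02%) and 80 lower (2.66%). Among the higher genes were the contractile genes Acta2, Cnn1 and Myl9, the actins Actb and Actg1, and the matrix genes Col1a1, Sparc and Thbs1. Among the lower genes were Crabp1, a retinoic acid binding protein, Bnip3, a target of the low-oxygen response, the glycolysis gene Pgk1 and the nucleolar Npm1. Of the 80 lower genes 31 were gene models without a given name, compared with 4 of the 91 higher genes and 563 of all 3013 tested. A total of 619 genes had an unadjusted p under 0.05, and over all tested genes the log2 fold change had a median of -0.02. Without the replicate term 61 genes passed, and without siEp300 replicate 3 or nt replicate 3 the count was 81 or 80. With siEp300 replicate 1 left out it was 104, and without all libraries of replicate 1 or 3 it was 71 or 50. Higher genes made 53.2% of calls in the main test, 69.0% with DESeq2's size factors in edgeR and 65.9% in DESeq2 itself.

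Of the 171 genes, 72 were followed by name, 61 by the rule for naming and 11 chosen after their values were seen, and 99 are counted only. The 61 genes were followed through 18 other settings, and 17 of these kept their call in each setting that gave a value except limma on the authors' log2 values, which called 2 genes in all. Cnn1 and Myl9 had no adjusted p in DESeq2 or in a fit of the compared libraries alone. These were Acta2, Cnn1, Myl9, Actb, Cfl1, Id3, Col1a1, Col1a2, Sparc, Thbs1, Timp2, Timp3, Vim and Fth1 among the higher genes and Crabp1, Bnip3 and Pgk1 among the lower. Of the other 44, calls were lost without all libraries of replicate 1 for 32 genes, replicate 2 for 20 and replicate 3 for 32. When a single library was left out, 26 calls were lost without siEp300 replicate 3, 26 without nt replicate 3, 23 without siEp300 replicate 1, 15 and 14 without nt replicates 2 and 1, and 3 without siEp300 replicate 2.

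**Figure D1:**
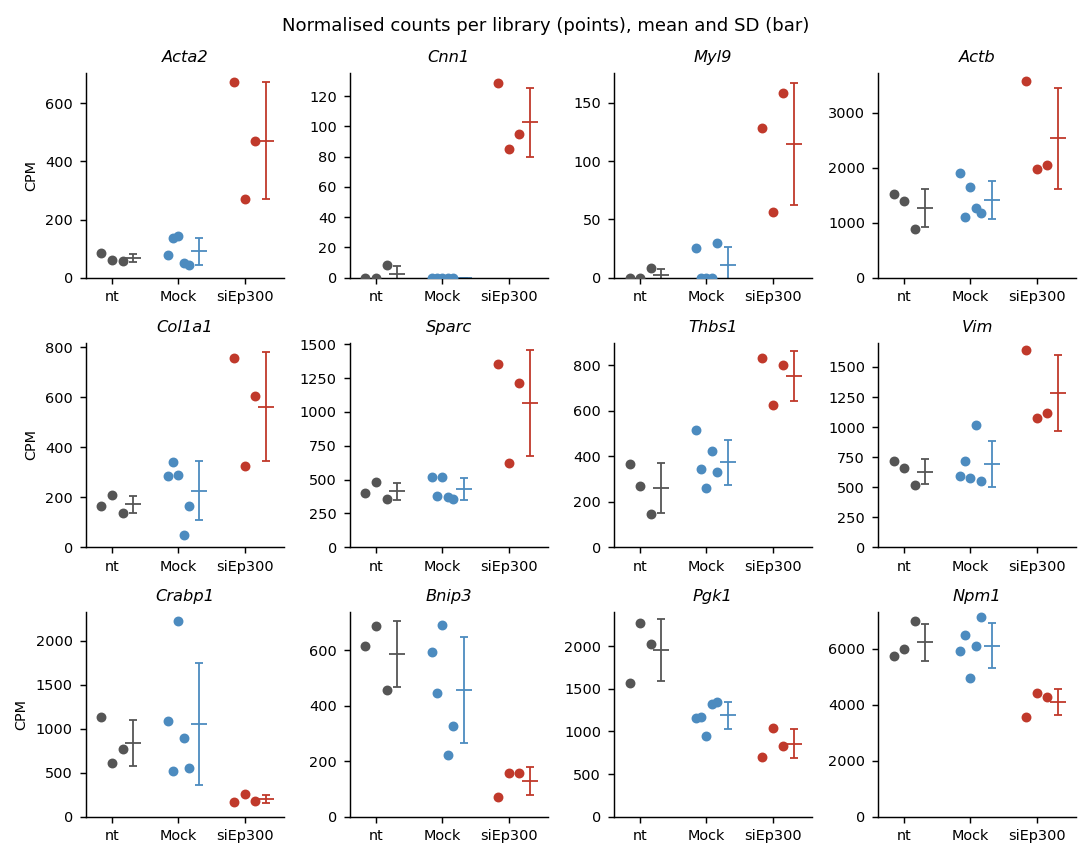
Normalised counts (CPM, linear axis from 0) of 12 genes in each nt, Mock and siEp300 library (points, in replicate order from left to right) with the mean and SD beside them. All siEp300 points lie above those of nt for the first 8 genes and below them for Crabp1, Bnip3, Pgk1 and Npm1.

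Acta2, Cnn1 and Myl9, contractile genes that TGF-β and SMAD signalling induces in fibroblasts, were higher in siEp300. Of 27 listed TGF-β and SMAD responsive genes 15 were tested, 6 rose (40.0% of those tested, beside 3.02% of all genes), none fell, and the median log2 fold change was 1.95 with all 15 above 0. Acta2 (chr19:34241090-34255590, minus strand), smooth muscle α-actin, was at 672, 269.5 and 471 CPM in siEp300 replicates 1, 2 and 3, at 83.3, 59.8 and 57.2 in nt and at 77.4, 137, 144, 49.6 and 44.8 in Mock. No siEp300 library overlapped with a control library. Its mean was 471 ± 201 CPM (SD, n = 3) against 66.8 ± 14.4 (n = 3), a fitted log2 fold change of 2.84 ± 0.37 (SE) with an adjusted p of 4.91e-10. Cnn1 (chr9:22099216-22109630, plus strand), the smooth muscle calponin, was at 129, 85.1 and 95.0 CPM in siEp300, at 0, 0 and 8.17 in nt and at 0 in all 5 Mock libraries. With 36 counts in siEp300 and 1 in nt the ratio of counts was 24.8 (exact 95% interval 4.18 to 1008), and against Mock it was at least 6.97-fold higher, taking 3 counts over the Mock libraries as the floor. Myl9 (chr2:156775420-156781658, plus strand), the regulatory light chain of smooth muscle and non-muscle myosin, was at 129, 56.7 and 158 CPM in siEp300, 0, 0 and 8.17 in nt and 25.8, 0, 0, 0 and 29.9 in Mock. All 3 siEp300 libraries were above every control library, and the ratio to nt was 33.1 (5.67 to 1335) from 48 counts against 1. The adjusted p was 0.00107 for Cnn1 and 7.66e-05 for Myl9.

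Palld, a scaffold of actin stress fibres, rose by 3.26 ± 0.83 on the log2 scale (adjusted p 0.00541), from 0, 14.96 and 8.17 CPM in nt to 114, 56.7 and 99.5 in siEp300, but 2 Mock libraries reached the siEp300 range and the call was lost without nt replicate 3 (0.0796). Cnn2, a calponin of non-muscle cells, was at 129, 70.9 and 145 CPM against 33.3, 29.9 and 16.3 in nt (log2 fold change 2.26 ± 0.58, adjusted p 0.00636). Its Mock libraries ran from 0 to 134 and overlapped siEp300, and the adjusted p was 0.119 without siEp300 replicate 3 and 0.148 without nt replicate 3. Id3, an inhibitor of basic helix-loop-helix factors and a direct target of SMADs in the BMP branch, was at 286, 199 and 339 CPM in siEp300, 0, 74.8 and 114 in nt and 155, 34.3, 28.8, 99.3 and 119 in Mock, with no overlap (log2 fold change 1.95 ± 0.39, adjusted p 0.000121). The other tested members were Tagln, Pmepa1, Tgfb2, Id1, Tpm2, Ltbp1, Id2, Tpm1 and Tnc, whose fitted log2 fold changes ran from 2.77 down to 0.02 and which did not pass the test against nt. Actg2, the enteric smooth muscle actin, was chosen after its values were seen. It had 14 counts in siEp300 (57.2, 0 and 45.2 CPM) and none in nt, which makes it at least 3.22-fold higher over a floor of 3 counts (adjusted p 0.0365), and without nt replicate 3 the adjusted p was 0.182, without siEp300 replicate 3 0.186.

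The main actins and the actin-severing protein cofilin rose as well. Of 35 listed cytoskeleton genes 27 were tested, 4 rose (beside 3.02% of all genes), none fell, and the median log2 fold change was 0.57, compared with -0.02 for all genes. Actb (chr5:142903115-142906754, minus strand), β-actin, was at 3588, 1972 and 2045 CPM in siEp300, at 1532, 1406 and 882 in nt and at 1909.5, 1099, 1643, 1266 and 1179 in Mock. Each siEp300 library exceeded each control library (log2 fold change 1.01 ± 0.18, adjusted p 5.92e-06). Actg1, γ-actin, was at 1587, 965 and 1348 CPM in siEp300 against 966, 508 and 580.0 in nt. The lowest siEp300 library lay just under the highest nt library, all 3 were above Mock (552 to 865), and the log2 fold change was 0.97 ± 0.20 (adjusted p 0.000252, and 0.0613 without the libraries of replicate 3). Cfl1, cofilin, was at 972, 723 and 837 CPM in siEp300, 449.6, 404 and 425 in nt and 335 to 519 in Mock with no overlap (0.98 ± 0.20, adjusted p 0.000253). Tubb5, a β-tubulin, was called at 0.57 ± 0.17 (adjusted p 0.0259), a call that was lost without siEp300 replicate 1 (0.133) or 3 (0.091) and without nt replicate 1 (0.138) or 2 (0.0798). Cald1 and Lpp, chosen after their values were seen, encode caldesmon and a zyxin-family protein of focal adhesions. Cald1 was at 901, 624 and 656 CPM in siEp300, 316, 344 and 294 in nt and 223 to 490.3 in Mock (1.17 ± 0.23, adjusted p 8.52e-05), and Lpp at 1015, 553 and 669.6, 283, 254 and 278 and 206 to 373 (1.41 ± 0.24, adjusted p 3.31e-06), with no overlap for either.

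Many actin and calponin genes are regulated through the CArG box, the site of serum response factor, and the promoters of 3 called genes are shown because they hold it. The searched motif was CC, 6 bases of A or T, and GG, which reads the same on both strands, in RefSeq promoter windows of 250 bases before to 50 after the annotated start (GRCm38.p6). The box, in capitals, stands 161, 56 and 90 bases before the start of Myl9, Cnn2 and Actg1 in these 90-base stretches, given on the strand of the gene:
Myl9, chr2:156775263-156775352, plus strand: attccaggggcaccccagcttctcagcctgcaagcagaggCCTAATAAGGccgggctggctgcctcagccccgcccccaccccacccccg
Cnn2, chr10:79988504-79988593, plus strand: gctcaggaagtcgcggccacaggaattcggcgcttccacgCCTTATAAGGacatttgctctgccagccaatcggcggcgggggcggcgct
Actg1, chr11:120348536-120348625, minus strand: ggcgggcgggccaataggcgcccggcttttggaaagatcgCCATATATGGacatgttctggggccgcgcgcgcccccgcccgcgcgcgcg
The motif was found in 5 of 65 called higher genes with a window (7.69%, with Rhoj and Gsto1 as the others), in 1 of 36 called lower genes (2.78%, Ldha), in 46 of 1921 tested genes (2.39%) and in 488 of all 27025 windows (1.81%). All 6 called TGF-β and SMAD responsive genes had a window, and in those of Acta2, Cnn1, Palld and Id3 these letters were not found. A match is a description of these letters and no measure of binding.

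Matrix genes moved in both directions, with more of them higher. Of 31 listed genes 26 were tested, 6 rose and 2 fell, beside 3.02% and 2.66% of all genes, and the median log2 fold change was 0.81. Col1a1 (chr11:94936224-94953042, plus strand) and Col1a2 (chr6:4504814-4541544, plus strand) encode the chains of type I collagen. Col1a1 was at 758, 326 and 606 CPM in siEp300, 167, 209 and 139 in nt and 284, 343, 288, 49.6 and 164 in Mock. The siEp300 libraries were above nt, while the lowest of them fell within the Mock range (log2 fold change 1.77 ± 0.28, adjusted p 6.11e-07). Col1a2 showed the same order at 1001, 369 and 765 CPM against 349.7, 284 and 310.4 in nt and 323 to 519 in Mock (1.19 ± 0.24, adjusted p 0.000168). Sparc, a collagen-binding matricellular protein, was at 1358, 624 and 1217 CPM in siEp300, 399.7, 479 and 359 in nt and 358 to 519 in Mock without overlap (1.42 ± 0.21, adjusted p 6.12e-08). Thbs1, thrombospondin 1, which activates latent TGF-β, was at 829, 624 and 801 CPM in siEp300, 366, 269 and 147 in nt and 516, 343, 259, 422 and 328 in Mock, again without overlap (1.67 ± 0.26, adjusted p 1.33e-07). The metalloproteinase inhibitors Timp2 and Timp3 rose by 1.36 ± 0.21 and 2.20 ± 0.41 (adjusted p 3.81e-07 and 3.77e-05), from 349.7, 568 and 384 and 66.6, 59.8 and 40.8 CPM in nt to 1244, 1149 and 973 and 329, 184 and 239.8 in siEp300, and Mock lay below siEp300 for both.

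The matrix protease Mmp3, stromelysin 1, went the other way. It was at 42.9, 85.1 and 45.2 CPM in siEp300, 216, 239 and 253 in nt and 258, 206, 404, 124.1 and 149 in Mock. No library overlapped between siEp300 and either control, and the log2 fold change was -2.11 ± 0.44 (adjusted p 0.000259, and 0.093 without the libraries of replicate 3). Its 3′ end is nearly identical to that of the gene model Gm15242, so that reads of both cannot be told apart here. Dcn, the proteoglycan decorin, was at 42.9, 99.3 and 204 CPM against 416, 239 and 335 in nt (-1.22 ± 0.31, adjusted p 0.00467), and without nt replicate 1 the adjusted p was 0.0595. siEp300 replicate 3 reached the Mock range for Dcn, which ran from 149 to 634. Spp1, osteopontin, was chosen after its values were seen and fell from 1582, 793 and 923 CPM in nt to 315, 582 and 538 in siEp300 (-1.14 ± 0.22, adjusted p 8.68e-05, and 0.149 without the libraries of replicate 1). Plin2, a coat protein of lipid droplets, was chosen in the same way and fell from 283, 508 and 392.1 to 157, 142 and 204 CPM (-1.08 ± 0.28, adjusted p 0.00649, and 0.137 without nt replicate 3), with siEp300 and Mock (149 to 432) overlapping.

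Mesenchymal genes were mostly above 0 on the log2 scale against nt. Of 32 listed regulators and surface genes 19 were tested, 17 had a log2 fold change above 0 (median 0.56) and 3 rose. Of all tested genes 51.8% were below 0 and 3.02% rose. Against Mock 8 of the 19 were higher and 1 lower (beside 3.92% and 6.8% of all genes), and against the mean of the other siRNAs also 8 and 1 (7.43% and 5.61%). Vim, the intermediate filament vimentin, was at 1644, 1078 and 1118 CPM in siEp300, 716, 658 and 515 in nt and 594, 721, 577, 1018 and 552 in Mock. Every siEp300 library was above every control library (1.03 ± 0.18, adjusted p 1.25e-05). Cd44, the hyaluronan receptor, rose from 283, 119.6 and 310.4 to 472, 511 and 606 CPM (1.13 ± 0.24, adjusted p 0.000535, and 0.0705 without the libraries of replicate 2) with Mock at 115 to 275. Prrx1, a homeobox factor of limb and fibroblast mesenchyme, rose by 1.03 ± 0.27 (adjusted p 0.00649), a call that was lost without siEp300 replicate 1 (0.124) and without nt replicate 1 (0.0626). Among epithelial genes 1 of 25 was tested, Perp, at 0.60 ± 0.35 (adjusted p 0.314), and of 34 pluripotency genes 2 were tested, L1td1 at -1.19 ± 0.62 and Fut9 at -0.64 ± 0.61 (adjusted p 0.264 and 0.579). Cdh1, Epcam, Sall4 and the other genes of these lists had too few counts for a test at this depth. The 25 epithelial genes, Perp included, summed to 316 to 448 CPM in siEp300, 265 to 287 in nt and 141 to 334 in Mock. The 34 pluripotency genes summed to 187 to 316 CPM in siEp300, 293 to 424 in nt and 283 to 443 in Mock. These sums were not tested.

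Cyclins, ferritin and single secreted or surface proteins were among the other higher genes. Ccnd2 (chr6:127125162-127152193, minus strand), cyclin D2, was chosen after its values were seen and was at 4017, 2794 and 2692 CPM in siEp300, 1665, 1167 and 1127 in nt and 1342, 1579, 1557, 2284 and 1358 in Mock. The siEp300 libraries were above all controls (1.26 ± 0.16, adjusted p 3.93e-10), and it is 1 of the 2 genes that limma also called on the authors' log2 values, next to Crabp1. Ccnd1, cyclin D1, also chosen after its values were seen, was at 615, 539 and 466 CPM against 366, 194 and 196 in nt (1.12 ± 0.25, adjusted p 0.000921, and 0.0533 without nt replicate 3), and Mock reached 313 to 670.3. Cdk6, a kinase partner of the D cyclins, Lmna, lamin A/C, and Pik3r1, a regulatory subunit of PI3-kinase, were chosen in the same way and called higher. Cdk6 was at 177 ± 69.9 CPM (SD) against 67.5 ± 51.7 in nt (adjusted p 0.025) and Lmna at 265 ± 87.1 against 124.6 ± 9.19 (0.0302), and Pik3r1 had 29 counts against 3, a ratio of 6.67 (exact 95% interval 2.07 to 34.2, adjusted p 0.036). Each overlapped with Mock, and without nt replicate 3 their adjusted p was 0.311, 0.0904 and 0.147. Of 11 tested p53 targets 1 rose and the median log2 fold change was 0.11. This gene, Cdkn1a, which encodes p21, was called against nt (0.86 ± 0.22, adjusted p 0.00696) at 786, 809 and 534 CPM, but Mock ran from 254 to 799.9 and the difference from Mock was 0.25 ± 0.21 (adjusted p 0.493). The ferritin heavy chain Fth1 was at 3345, 1986 and 1950.1 CPM in siEp300 and 1782, 972 and 1249.9 in nt (0.84 ± 0.16, adjusted p 8.12e-05), with Mock (1284 to 2039) overlapping. Of the 23 tested genes of the NRF2 and metallothionein list, 3 rose (Fth1, Ftl1 and Gpx1, beside 3.02% of all genes), at a median of 0.26, and without siEp300 replicate 3 the adjusted p was 0.0937 for Ftl1 and 0.273 for Gpx1. Ftl1 has 8 genes with nearly identical 3′ ends, from which its reads cannot be told apart. Enpp2, autotaxin, which makes lysophosphatidic acid, was at 114, 128 and 204 CPM in siEp300, 33.3, 29.9 and 24.5 in nt and 0, 34.3, 0, 24.8 and 14.9 in Mock with no overlap (2.41 ± 0.62, adjusted p 0.00558, and 0.184 without nt replicate 3). Vcam1 rose in the list of chemokines and NF-κB targets, from 66.6, 105 and 73.5 to 272, 184 and 239.8 CPM (1.51 ± 0.38, adjusted p 0.00432, and 0.0908 without nt replicate 3). In the same list the call of Cxcl5 rested on replicate 3. This chemokine was at 186, 142 and 525 CPM against 183, 179 and 98.0 (1.17, adjusted p 0.0153), and was at -0.13 on the log2 scale without that replicate, 0.43 without siEp300 replicate 3 and 0.55 without nt replicate 3.

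Crabp1 (chr9:54764748-54773110, plus strand) encodes the cellular retinoic acid binding protein 1, a cytosolic carrier of retinoic acid, and had the lowest level in siEp300 of all transfected conditions. It was at 172, 255 and 181 CPM in siEp300 replicates 1, 2 and 3, at 1132, 613 and 768 in nt and at 1084, 515, 2219.5, 894 and 552 in Mock. Its mean was 203 ± 45.9 CPM (SD, n = 3) against 838 ± 267 in nt (n = 3), a log2 fold change of -2.02 ± 0.24 (adjusted p 1.21e-11). All 3 siEp300 libraries lay below each of the 103 other transfected libraries, which ran from 315 to 2219.5 CPM with a median of 876. Crabp1 was named in part for its difference from the other siRNAs, so that this place was in part set by the choice. Among the 33 siRNAs the means that came next were those of siPou5f1 at 391 ± 94.4 and siWdr5 at 438 ± 2.58 CPM, and the median of the other siRNAs was 892. Crabp1 was the only one of the 61 genes followed whose call was kept in all 18 other settings, in which its log2 fold change ran from -2.32 to -1.65. Ccnd2, which is not among the 61 and was chosen after its values were seen, also kept its call in all 18. The seeds of the 2 listed siRNAs were searched after the stop codon, that of the third was not, and Crabp1 held no match to them. A match stood in 3 of 48 called lower genes with an annotated sequence (6.25%: Eef1e1, Rabggtb and Glrx3), in 25 of 85 called higher genes (29.4%) and in 473 of 2398 tested genes (19.7%), and the median length searched was 476.5 bases for called lower, 1448 for called higher and 1322.5 for all tested genes.

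Bnip3 and Higd1a of the low-oxygen response and Pgk1, Tpi1 and Ldha of glycolysis were lower in siEp300 than in nt. HIF-1, whose α subunit binds EP300 and CREBBP, induces such genes when oxygen is scarce. Of 26 listed HIF-1 targets 7 were tested and 2 fell (median -0.62), and of 18 listed glycolysis enzymes 9 were tested, 3 fell and all 9 were below 0 (median -0.54), compared with 2.66% of all genes called lower. Against Mock the medians were -0.20 for the HIF-1 targets, with 1 lower, and -0.46 for the glycolysis enzymes, with 1 lower, and for Mock against nt they were -0.42 and -0.10. Bnip3 (chr7:138890836-138909519, minus strand), a mitophagy receptor of the BCL2 family, was at 71.5, 156 and 158 CPM in siEp300, 616, 688 and 457 in nt and 594, 446, 692, 223 and 328 in Mock. No library overlapped, and the log2 fold change was -1.95 ± 0.29 (adjusted p 4.36e-08). Higd1a, a hypoxia-induced protein of the inner mitochondrial membrane, was at 14.3, 14.2 and 63.3 CPM against 149.9, 165 and 122.5 in nt (-1.76 ± 0.49, adjusted p 0.0121), overlapped with Mock (28.8 to 137), and had an adjusted p of 0.0641 without siEp300 replicate 1 and 0.0672 without nt replicate 2. Pgk1 (chrX:106187100-106203699, plus strand), phosphoglycerate kinase, was at 701, 1035 and 833 CPM in siEp300, 1565, 2273 and 2026 in nt and 1161, 1167, 951, 1316 and 1343 in Mock. Here the nt libraries stood above both other groups: the log2 fold change was -1.20 ± 0.18 against nt (adjusted p 1.17e-07), -0.49 ± 0.18 against Mock (0.067), and -0.70 ± 0.17 for Mock against nt (0.00771). Tpi1, triose phosphate isomerase, fell from 466, 389 and 523 to 243, 255 and 226 CPM (-0.98 ± 0.25, adjusted p 0.00558, and 0.134 and 0.082 without replicate 3 of siEp300 or nt). Ldha, lactate dehydrogenase A, was at 443, 638 and 710.4 CPM in siEp300, 866, 1032 and 988 in nt and 951 to 1030.0 in Mock, below both (-0.65 ± 0.19, adjusted p 0.0176, and 0.124 without siEp300 replicate 1, 0.0829 without nt replicate 2 and 0.0645 without nt replicate 3). The HIF-1 target Adm had a log2 fold change of 1.69 and did not pass the test.

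Single nucleolar, ribosomal, histone and mitochondrial transcripts were called lower. For the ribosomal proteins the share was near that of all genes. Of 23 tested genes of ribosome biogenesis 3 fell (Npm1, Nop58 and Fbl, median -0.30), of 70 cytoplasmic ribosomal protein genes 3 (Rpl10, Rpl11 and Rps14, median -0.27), of 15 mitochondrially encoded transcripts 2 (mt-Nd3 and mt-Nd6, median -0.29), and of 5 histone genes 1 (Hist1h2ae), beside 2.66% of all genes called lower. Npm1, nucleophosmin, was at 3559.8, 4426 and 4289 CPM in siEp300, 5729, 5997 and 6977 in nt and 5909, 6489, 4958, 6082 and 7120.0 in Mock. The siEp300 libraries were below all others (-0.61 ± 0.14, adjusted p 0.00107, and 0.0659 without the libraries of replicate 3). Nop58, a core protein of box C/D small nucleolar RNPs, was at 386, 738 and 570.1 CPM against 1066, 1032 and 948 in nt (-0.81 ± 0.20, adjusted p 0.00335, and 0.0763 without siEp300 replicate 1). Rpl10, Rpl11, Rps14, Fbl and mt-Nd3 have genes with nearly identical 3′ ends, and Rpl10 had an adjusted p of 0.0576 without siEp300 replicate 1, Rpl11 0.129 and Rps14 0.134 without siEp300 replicate 3. Fbl, fibrillarin, was called at -1.17 ± 0.38 (adjusted p 0.0452, and 0.269 without nt replicate 3), and mt-Nd6 at -1.27 ± 0.37 (0.0214, and 0.19 without siEp300 replicate 3). mt-Nd3, a subunit of respiratory complex I, was at 200.1, 369 and 357 CPM against 483, 613 and 686 in nt and 568 to 1059.8 in Mock (-0.95 ± 0.23, adjusted p 0.00338, and 0.0773 without siEp300 replicate 3). Hist1h2ao and Hist1h2ae encode H2A histones with 11 and 10 near-identical copies, so that they cannot be told apart from other H2A genes. Hist1h2ae was called at -1.81 ± 0.56 (adjusted p 0.0321, and 0.202 without siEp300 replicate 3). Hist1h2ao, which is not on the histone list and was named for its difference from the other siRNAs, was at 100.1, 113 and 63.3 CPM against 199.8, 269 and 221 (-1.42 ± 0.35, adjusted p 0.00384, and 0.0925 without siEp300 replicate 3).

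The remaining lists held 1 or 2 calls or none. There was 1 call each for mitosis (Kif11 lower, of 27 tested), splicing factors (Srsf3 lower, of 32), interferon-stimulated genes (Ifitm1 lower, of 4), imprinted genes (Dcn lower, of 10), small nucleolar RNA hosts (Snhg1 lower, of 12) and translation factors (Eif5b higher, of 34), and 2 of 22 for cytosolic and mitochondrial heat shock (Hsp90aa1 and Cct8 lower), beside 2.66% of all genes called lower and 3.02% higher. Each of these 8 calls was lost when at least 1 single siEp300 or nt library was left out. No gene passed among 6 tested acetyltransferases and bromodomain proteins, 8 histone deacetylases and corepressors, 7 immediate early and CREB targets, 13 ATF4 targets, 12 sterol genes, 11 endoplasmic reticulum chaperones, 12 replication genes, 3 DNA repair genes, 50 nuclear respiratory chain genes, 24 proteasome subunits and 9 targets of the screen. In the first of these Hat1 was at -0.85 (adjusted p 0.0738). Of the most abundant members of these lists, the replication factor Pcna was at -0.61 and the dUTPase Dut at -0.59, the repair genes Apex1 and Chek1 at -0.52 and -0.91, the AP-1 gene Jund at 0.69, Psat1 and Slc3a2 of amino acid supply at -0.36 and 0.39, calnexin (Canx) at 0.39, Uqcrh of respiratory complex III at -0.44 and the proteasome subunits Psma4 and Psma1 at -0.36 and -0.49, with adjusted p from 0.0789 for Dut to 0.525 for Slc3a2. Against Mock Uqcrh, Psma4 and Psma1 were lower (-0.91, -0.71 and -0.61, adjusted p 0.000119, 0.0023 and 0.0271). The sign of the median turned from below to above 0 for splicing factors (0.01) and imprinted genes (0.05) with DESeq2's size factors in edgeR, and for translation factors (0.01) in DESeq2.

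The 12 largest called changes in each direction also held genes of no list. Zbtb20, a zinc finger repressor, was at 214, 28.4 and 167 CPM in siEp300 and 50.0, 14.96 and 16.3 in nt and overlapped (2.48 ± 0.58, adjusted p 0.00201, and 0.0783 without siEp300 replicate 3). Plrg1, a spliceosome component, was at 42.9, 85.1 and 58.8 CPM in siEp300, 216, 284 and 139 in nt and 206, 68.7, 144, 199 and 194 in Mock (-1.66 ± 0.40, adjusted p 0.00239, and 0.0555 without the libraries of replicate 1). The siEp300 libraries were below nt, and the highest of them reached the Mock range. Zbtb38 (2.54), Igfbp7 (2.54), Cdsn (2.17) and Aqp1 (2.16) among the higher genes and Eef1e1 (-1.76), Agtr2 (-1.67) and Tmem258 (-1.49) among the lower each lost their call without siEp300 replicate 3. Cd320, the receptor for transcobalamin-bound vitamin B12 (-1.67), lost it without nt replicate 2 (0.103).

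**Figure D2:**
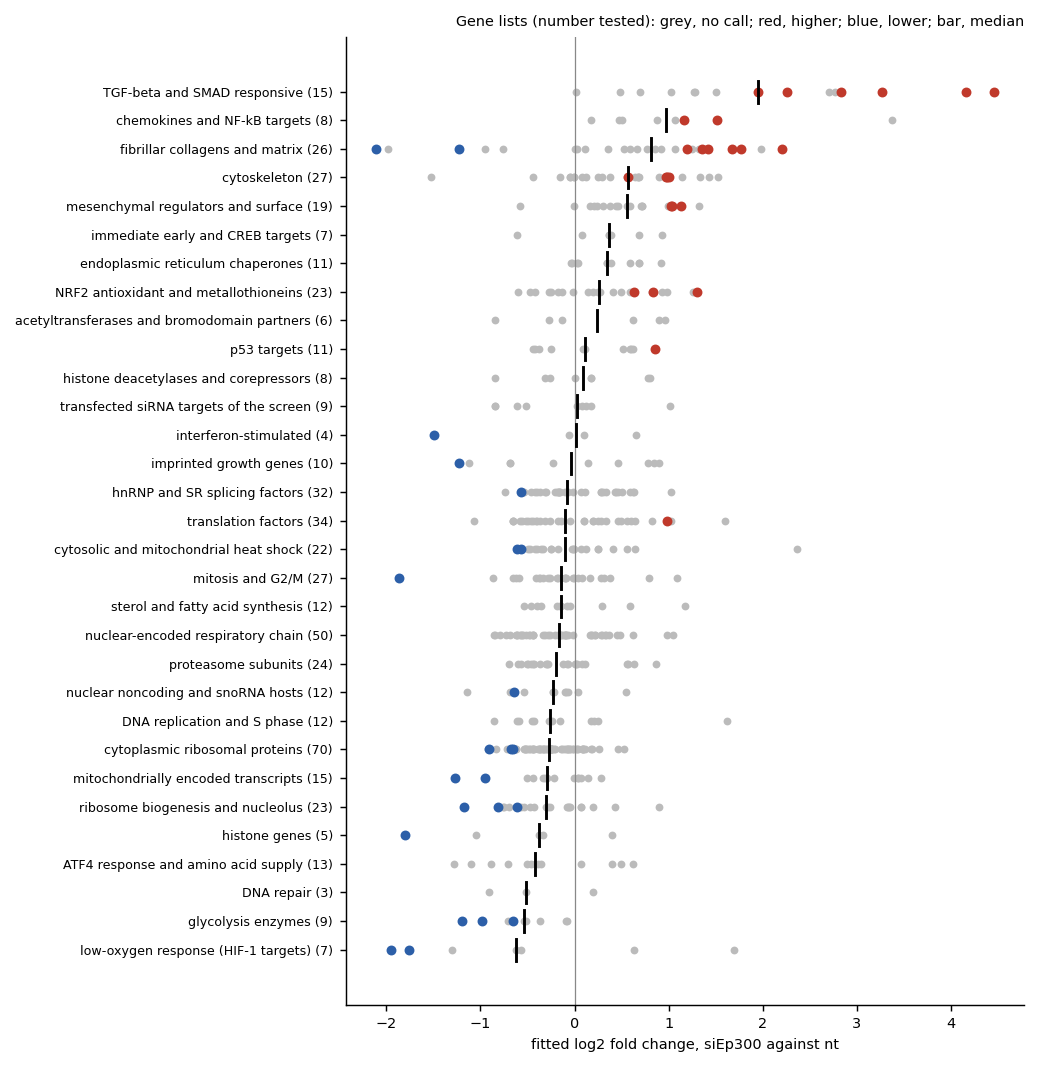
Fitted log2 fold changes of siEp300 against nt for the tested members of each gene list, ordered by their median (black bar), with called genes in red (higher) or blue (lower) and others in grey. TGF-β and SMAD responsive genes have the highest median (1.95) and low-oxygen response genes the lowest of the lists with at least 3 tested genes (-0.62, against -0.20 with Mock as the control).

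The Mock libraries gave a second control, and they share the siEp300 libraries with the comparison above. Against Mock 323 genes passed (10.7%), 118 higher (3.92%) and 205 lower (6.8%), while Mock and nt differed in 47 genes (1.56%). Of the 91 genes higher against nt, 45 were also higher against Mock, none was lower and 90 had a log2 fold change above 0. Of the 80 lower genes, 45 were also lower against Mock and 77 were below 0. Acta2 differed from Mock by 2.50 ± 0.36 (adjusted p 1.08e-08), Sparc by 1.38 ± 0.21 (4.07e-08), Crabp1 by -2.23 ± 0.23 (3.35e-15) and Bnip3 by -1.52 ± 0.30 (4.68e-05). Of the genes named for their difference from Mock, Lxn, latexin, a carboxypeptidase inhibitor, was at 157, 142 and 131 CPM in siEp300 and 51.6, 0, 0, 0 and 14.9 in Mock but 66.6, 44.9 and 65.4 in nt (3.19 ± 0.65, adjusted p 7.94e-05, against nt 0.0999). The mitochondrial mt-Atp8 was at 129, 113 and 45.2 against 206, 549, 288, 248 and 373 CPM (-1.98 ± 0.36, adjusted p 8.81e-06, against nt 0.152), and its sequence overlaps mt-Atp6 on the same strand. Chchd1 and Mir5136 were called lower against Mock from 14 and 8 counts in siEp300 (-1.97 and -2.34, adjusted p 0.00291 and 0.00188), and Aak1, an adaptor-associated kinase, was called higher from 22 counts against 1 in Mock, a ratio of 12.8 (exact 95% interval 2.06 to 527, adjusted p 0.0255). None of these passed against nt (0.143, 0.149 and 0.307). Against Mock 10 of 15 mitochondrially encoded transcripts and 18 of 70 ribosomal protein genes were lower. Without a replicate of either group the count ran from 126 to 268, and without the replicate term it was 176.

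Against the mean of the 32 other siRNAs, 393 genes passed (13%), 224 higher (7.43%) and 169 lower (5.61%). Of the 91 genes higher against nt 74 were higher here, and of the 80 lower 52 were lower, with the siEp300 libraries shared between both. By the number of genes that differed from nt, siEp300 stood 4th of 33 siRNAs, after siWdr5 (821), siBard1 (311) and siPou5f1 (174), and the median of the others was 30. Without siEp300 replicate 3, the deepest library, its count was 81, from 2 libraries where the other siRNAs kept all of theirs, so that this count has no place in the order. Acta2 was highest in siEp300 of all 33 siRNAs, at 471 ± 201 CPM, next to siBard1 at 418 ± 144, a difference within their spread. Cnn1, Enpp2, Aqp1, Fth1, Actg1 and Vim also had their highest mean in siEp300, and Crabp1, Higd1a, Plrg1, Cd320, mt-Nd3 and Hist1h2ao their lowest. Acta2, Cnn1, Enpp2, Crabp1 and Hist1h2ao were named for their difference from the other siRNAs, and the rest for their call against nt. Their place was thus in part set by the choice, and the share of all genes with siEp300 first or last was not counted. For Vim the highest other siRNA mean was 1267 CPM beside 1279.9 ± 316 in siEp300, so these neighbours did not differ beyond their spread.

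**Figure D3:**
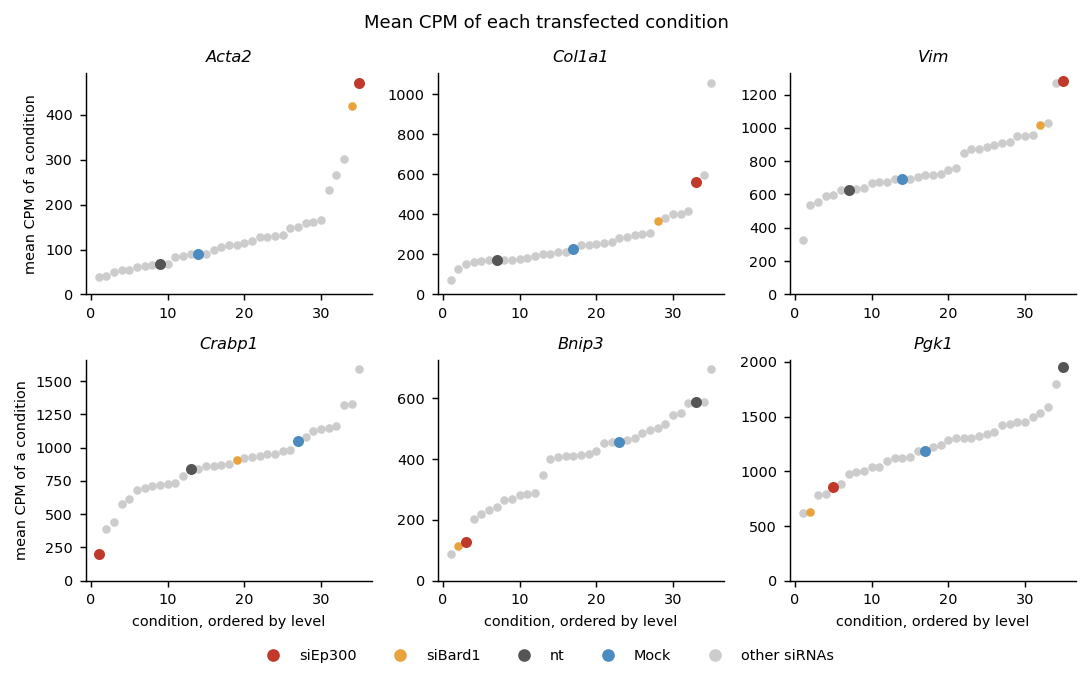
Mean CPM of each of 35 transfected conditions (33 siRNAs, nt and Mock) for 6 genes, ordered by level, with siEp300, siBard1, nt and Mock coloured. siEp300 has the highest mean for Acta2 and Vim and the lowest for Crabp1, and siBard1 stands next to siEp300 for Acta2 and Bnip3 but in the middle of the order for Crabp1.

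BARD1 is a partner of BRCA1 in DNA repair, and siBard1 was set beside siEp300 with earlier results of both known. Bard1 itself had 0 counts in siBard1 and 37 in the 103 other transfected libraries, 4.41 CPM, which is too few to show a difference at this depth. The libraries of the 2 conditions differed in 49 genes (1.63%), 18 higher (0.597%) and 31 lower (1.03%) in siEp300. Of the 17 genes whose calls were kept, Crabp1 alone differed: it was at 203 ± 45.9 CPM in siEp300 and 907 ± 115 in siBard1 (log2 fold change -2.13 ± 0.24, adjusted p 2.18e-13). Acta2, Cnn1, Myl9, Actb, Sparc and Col1a1 did not pass this test, with differences of 0.18 ± 0.26 for Acta2, 0.53 ± 0.55 for Cnn1, -0.10 ± 0.45 for Myl9, 0.03 ± 0.16 for Actb, 0.01 ± 0.18 for Sparc and 0.59 ± 0.24 for Col1a1 (adjusted p 0.875, 0.84, 0.971, 0.975, 0.994 and 0.273). Bnip3 was at 129 ± 49.5 CPM in siEp300 and 115 ± 25.6 in siBard1 (0.22 ± 0.38, adjusted p 0.911). The SE was largest for Cnn1 and Myl9 among these genes, and a missed threshold does not show that the levels were equal. No member of the matrix list was called in either direction (26 tested), and 1 of 12 tested fibroblast markers, 1 of 19 mesenchymal genes and 1 of 15 TGF-β and SMAD responsive genes were lower, beside 1.03% of all genes. Among the 31 genes lower in siEp300 than in siBard1, 6 named here after their values were seen were Tnc, tenascin C, by -1.61 (adjusted p 0.0393), the surface marker Thy1 by -1.59 (2.87e-05), the protease inhibitor Serpine2 by -1.21 (0.000379), and the secreted Wnt5a (-1.68, 0.0464), Grem1 (-0.73, 0.0446) and Sfrp1 (-0.95, 0.0292). Of the 18 genes higher in siEp300 than in siBard1 12 were gene models without a given name. Ncl, nucleolin, and Gsto1 were among the others, as was RP24-389J11.1, which bears only a clone name. Genes lower included Spp1 (-1.48 ± 0.22, adjusted p 8e-08) and Rpl11 (-1.21 ± 0.27, 0.00236). Without the replicate term 5 genes differed between siEp300 and siBard1, and with a replicate left out 11 to 23.

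The labels siHdac1 and siHat1 name a histone deacetylase and another acetyltransferase as targets. Hdac1 had 18 counts in siHdac1, 128 CPM of all counts beside 69.9 in the 103 other transfected libraries (ratio 1.83, exact interval 1.08 to 2.92). Hat1 had 106 in siHat1, 242 beside 219.5 CPM (1.10, 0.898 to 1.34). Neither target was thus measured lower on day 6 in the libraries labelled for it, and earlier levels were not measured. siEp300 differed from siHdac1 in 83 genes (2.75%), 42 higher (1.39%) and 41 lower (1.36%), and from siHat1 in 174 (5.77%), 92 higher (3.05%) and 82 lower (2.72%). Of the 17 genes, 10 were higher and 2 lower than in siHdac1, and 14 were higher and 3 lower than in siHat1. Acta2 differed from siHdac1 by 2.33 ± 0.43 (adjusted p 3.57e-05) and from siHat1 by 3.33 ± 0.36 (1.74e-14), at 90.6 ± 87.4 and 49.5 ± 31.4 CPM in these. Crabp1 was at 869 ± 88.0 and 842 ± 132 CPM, -2.08 ± 0.27 and -2.01 ± 0.23 (adjusted p 3.65e-10 and 5.36e-13). Mmp3 was low in siHdac1 too, at 38.99 ± 35.2 CPM beside 57.7 ± 23.7 in siEp300 (0.36 ± 0.80, adjusted p 0.898), but not in siHat1, at 203 ± 62.2 CPM (-1.85 ± 0.42, 0.00151). The siHdac1 libraries held 33709 to 72690 counts and those of siHat1 110581 to 214087, so that the test against siHdac1 had less depth.

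Only 2 genes were called in the same direction in all 6 comparisons of siEp300 (with nt, Mock, the mean of the other siRNAs, siHdac1, siHat1 and siBard1): Crabp1, lower, and Gsto1, higher. The comparisons share the siEp300 libraries. Gsto1, glutathione S-transferase omega 1, was chosen after its values were seen. It was at 2530.4, 2638 and 1697 CPM in siEp300, 1699, 1376 and 939 in nt and 1239, 1099, 1441, 1167 and 746 in Mock. The lowest siEp300 library lay just under the highest nt library and above Mock, and the log2 fold change was 0.79 ± 0.16 against nt (adjusted p 0.000252, and 0.217 without the replicate term) and 0.73 ± 0.16 against siBard1 (0.00254). Leaving out siBard1, 28 genes were called the same way in the other 5 comparisons, Acta2, Myl9, Col1a1, Col1a2, Sparc, Thbs1, Timp2, Id3, Cfl1, Ccnd2, Cd44, Bnip3, Ldha and mt-Nd3 among them.

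The time course of cells without siRNA gives the direction of each gene from Day00 to Day06 in libraries that neither siEp300 nor nt uses. In this comparison 668 genes passed (22.2%), 321 higher on Day06 (10.7%) and 347 lower (11.5%). Of the 91 genes higher in siEp300 than in nt, 40 were lower on Day06 than on Day00 and 7 were higher. This is 44.0% of them, beside 11.5% of all tested genes. Of the 80 lower genes, 23 were higher on Day06 (28.8%, beside 10.7% of all) and 5 lower. Counted from the time course, the 347 genes that were lower on Day06 had a median log2 fold change of 0.49 in siEp300 against nt, with 40 called higher and 5 lower. The 321 that were higher on Day06 had a median of -0.18, with 7 called higher and 23 lower, and genes with no call over time had a median of -0.07.

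Contractile and matrix genes were among those higher in siEp300 and lower on Day06. The mean of Acta2 over the time course was 4046, 2102, 895, 409.9, 259, 139.8 and 219.7 CPM on days 0 to 6. Of these daily means that of day 3 was nearest to the siEp300 mean of 471 ± 201 CPM, while nt at 66.8 ± 14.4 was below that of day 6. The spread between the libraries of a day is not part of this order. Thbs1 fell from 3818, 3917 and 3377 CPM on Day00 to 757, 669 and 498 on Day06 (-2.57 ± 0.20, adjusted p 4.1e-27), and its siEp300 libraries overlapped with Day06. Col1a1 fell from 821, 1927 and 1233 to 489.6, 524 and 361 CPM (-1.58 ± 0.23, adjusted p 1.37e-09). Of the 17 genes, 12 were lower on Day06 than on Day00, and Crabp1, Bnip3, Pgk1, Id3 and Fth1 were not called. Crabp1 was at 493, 296 and 406 CPM on Day00 and 534, 939.8 and 436 on Day06 (0.53 ± 0.24, adjusted p 0.111), and its lowest daily mean, 254 CPM on day 2, was above the siEp300 mean. Bnip3 was at 20.5, 106 and 57.9 and 74.2, 54.2 and 68.2 CPM, within or below the siEp300 range of 71.5, 156 and 158, and for Bnip3 all nt and Mock libraries were above each daily mean of the time course. Npm1 rose from 657, 868 and 852 to 1795, 2259 and 2045 CPM (1.35 ± 0.17, adjusted p 2.9e-11), and its level in nt, 6234 ± 657, was also above Day06. The nt and time course libraries thus differed in level for both genes, and the levels are set beside each other without a test. Dcn, lower in siEp300, was higher on Day06 than on Day00 (3.18 ± 0.54, adjusted p 4.41e-07). Ccnd2 and Ccnd1 were higher in siEp300 and also higher on Day06 (1.14 ± 0.17 and 1.74 ± 0.34, adjusted p 5.6e-09 and 1.19e-05), and Spp1 was lower in both (-1.07 ± 0.21, adjusted p 2.18e-05).

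**Figure D4:**
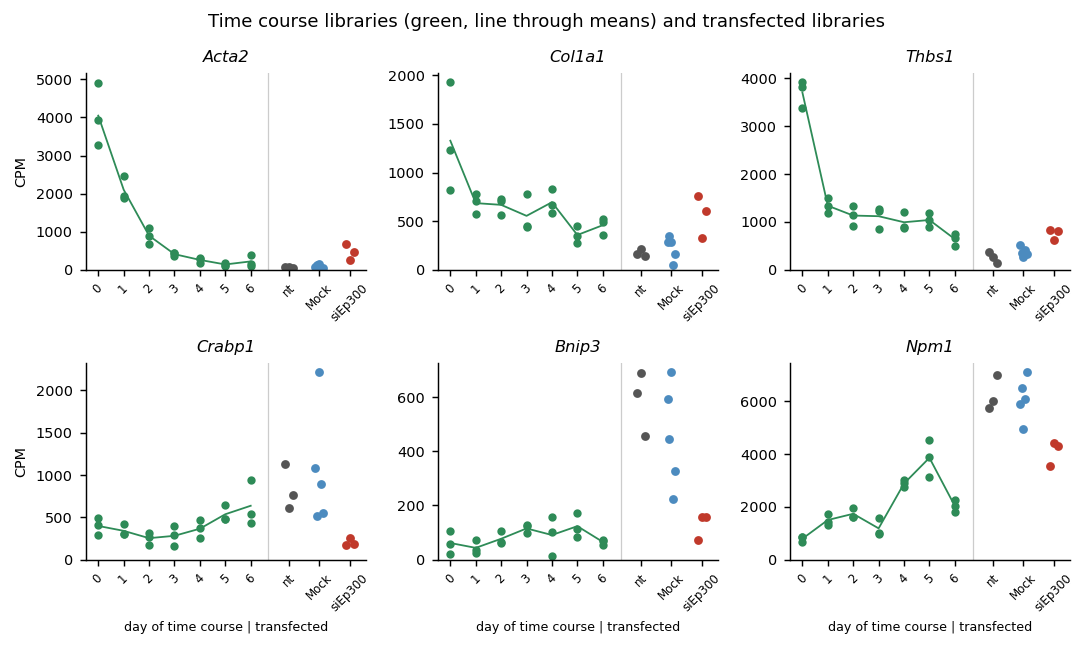
CPM of 6 genes in the time course of cells without siRNA (green points, 3 libraries a day, line through the daily means) and in the nt, Mock and siEp300 libraries on day 6. Acta2, Col1a1 and Thbs1 decline over time and lie higher in siEp300 than in nt, the Crabp1 mean in siEp300 lies below each daily mean, and Bnip3 and Npm1 are higher in nt and Mock than on any day.

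**Figure D5:**
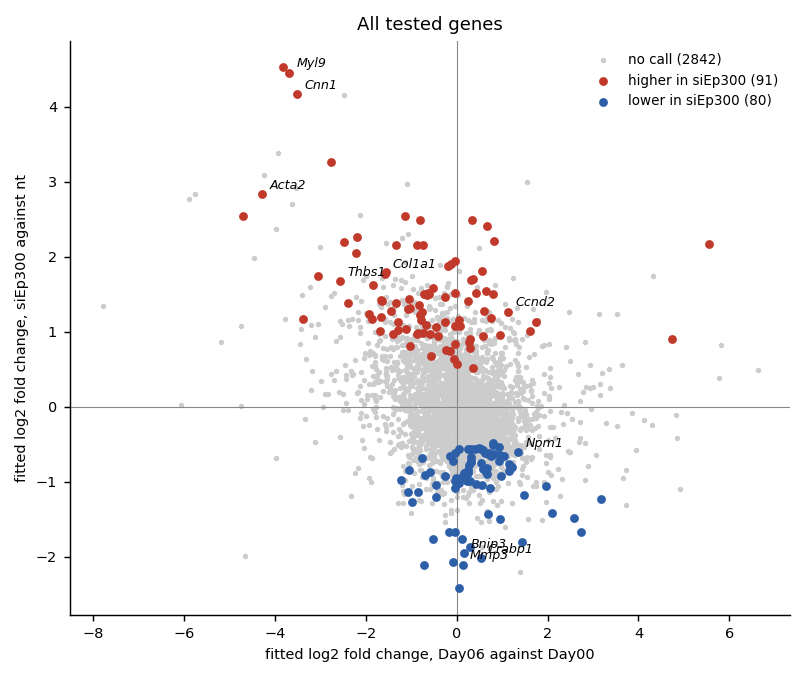
Fitted log2 fold changes of all 3013 tested genes for Day06 against Day00 (horizontal) and siEp300 against nt (vertical), with the 91 called higher genes in red and the 80 called lower genes in blue. Of the red points 40 are genes called lower on Day06, Acta2, Cnn1, Myl9, Col1a1 and Thbs1 among them, while Crabp1, Bnip3 and Mmp3 lie near 0 on the time axis.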

How the data were processed

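CEL-Seq2 libraries (a 3′ end method with unique molecular identifiers, UMIs) came from 3 sequenced pools, 1 per replicate, with 129 library columns whose headers name condition and replicate. The authors mapped reads to mm10 with Bowtie2, corrected UMIs with the CEL-Seq2 pipeline, assigned them to GENCODE vM13 and deposited raw counts per gene. Versions of these tools are not given in the sources used here. The authors also deposited log2 CPM values of 10568 genes after a library filter that kept 127 libraries, size factors and regression of the batch, used here for 1 alternative. Where replicate 3 had a pair of Mock columns, the one used was the column whose counts followed the log2 column (r = 0.986 against 0.0336 across genes).

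The 127 libraries were fitted together with edgeR 4.0.16 in R 4.3.3 (quasi-likelihood, TMM, filterByExpr with a minimum count of 10, condition plus replicate number), with Benjamini-Hochberg adjustment over 3013 genes. Errors beside log2 fold changes are SEs, the fold change divided by the root of F. CPM of tested genes are counts over the total of tested genes times the TMM factor. Those of Ep300, Crebbp and the sums over marker and gene lists are over all counts of a library. Same-numbered siEp300 and nt libraries deviated together over genes (r = 0.107, 0.116 and 0.359, all positive), and the number, which names the pool, was kept as a block. The scripts were tested on simulated counts. The 33 gene lists, 7 marker lists, the groups compared and the rule for naming were chosen with earlier results of these data known. The rule named the 12 largest called changes per direction (mean of at least 50 CPM, same sign in each replicate and against Mock, no gene models), called members of lists or otherwise the 2 most abundant, and the 5 largest against Mock and the other siRNAs. 1 gene that the rule named is not reported here. Gene coordinates are from GENCODE vM21 on GRCm38 (mm10), and sequences after the stop codon from its transcripts. Near-identical copies were matches of at least 97% over 100 of the last 400 bases. Alternatives were DESeq2 1.42.0, its size factors in edgeR, limma 3.58.1, no filter, no replicate block, other sets of libraries and siEp300 replicate 3 drawn down to the depth of nt replicate 3, the last chosen after seeing the data.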

Additional observations from a re-analysis of the deposited data

Results flagged for a closer look

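Of 24 genes whose 5 Mock libraries were searched for a library apart from the others, Agtr2, the angiotensin II receptor type 2, had 1. Its highest Mock library, a library of replicate 2, was at 317 CPM and the next at 149, a gap of 0.785 of the whole range beside a critical value of 0.71. Chance flags about 1 in 20 such groups.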

How the results depend on the processing

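For siEp300 against nt (171) 59 genes passed without the filter on low counts, 2 in limma on the authors' log2 values, 61 without the replicate block, 383 with nt and Mock joined as control, and 50 to 202 with a replicate or library left out. It was 168 with DESeq2's size factors in edgeR, 132 in DESeq2, 149 with all 129 columns and 136 with siEp300 replicate 3 drawn down, an alternative chosen after seeing the data. For siEp300 against Mock (323) the count was 147 without the filter, 10 in limma, 176 without the replicate block and 126 to 268 with a replicate left out. For Mock against nt (47) these counts were 19, 1, 10 and 15 to 21, and 73 in DESeq2. Against the mean of the other siRNAs (393) it was 4 in limma, 155 without the block and 120 to 335 with a replicate left out, and against siHdac1 (83) it was 21, 41 and 21 to 44. Against siHat1 (174) it was 58 without the filter, 10 in limma, 35 without the block and 38 to 100 with a replicate left out, and against siBard1 (49) 22, 6, 5 and 11 to 23, and 23 with all columns. For Day06 against Day00 (668) it was 430 without the filter and 343 to 564 with a replicate left out. The cause of these shifts was not tested. Of 61 called genes followed by name, 29 lost their call without the replicate block. The sign changed for genes that were not called and lay near 0: Rbbp4 was at -0.51 to 0.11 and Set at -0.050 to 0.26 with a replicate left out, and Hdac2 at -0.23 to 0.39, and -0.028 with the library drawn down. Scd2 was at 0.033 without the filter, 0.047 with DESeq2's size factors, 0.052 in DESeq2, 0.12 in the compared libraries alone, 0.16 with the joined control and -0.22 to 0.14 with a replicate left out. Msmo1 was at 0.026 in limma, 0.015 with the joined control and -0.38 to 0.28 with one left out, Hsp90b1 at -0.000348 in limma and -0.065 to 0.10, and Cox8a at 0.016 in the compared libraries alone. Cxcl5, called in the main test, ran from -0.13 to 1.58 with a replicate or library left out. At these depths Ep300 and most pluripotency and epithelial genes had too few counts for a test.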
